A study of Mus musculus with 16 samples.

Results

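The cell cycle genes described here are 43 genes listed by symbol, 19 that serve DNA replication and 24 that serve mitosis. A gene entered when the array carried a probe set with its name, and 40 of the 43 did, 18 replication genes and 22 mitosis genes, of 19505 named genes measured in all. The replication gene Mcm7 and the mitosis genes Ccnb1 and Foxm1 had no named probe set and were not analysed here. The rule for entry used function and array content and no signal value.

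The study used S100a5-tauGFP mice, 24 animals of both sexes aged 7 to 12 weeks, in which a green fluorescent protein reports S100a5, whose transcription in olfactory sensory neurons follows the activity of the cell. All mice spent 40 h in chambers with a clean air flow of 3.1 L per min, and after 26 h they received 10 s pulses every 20 min of either octanoic acid, a fatty acid odorant, or filtered air as the vehicle, called clean air below. Olfactory mucosa from 3 mice at a time was combined, dissociated and passed through a cell sorter that split GFP+ from GFP- cells, which gave 4 pools per treatment, 4 groups and 16 Clariom S arrays. The groups were GFP+ cells of octanoic acid mice, GFP- cells of the same octanoic acid pools, GFP+ cells of clean air mice, and GFP- cells of the same clean air pools, and every group carried the reporter allele. Each array is a bulk sample, in which fewer cells of a type and less RNA per cell cannot be told apart. The GFP- sample is what the gate left, and it also held neurons: the median level of 12 mature olfactory sensory neuron markers was 17.20 to 17.51 log2 on GFP+ arrays and 16.86 to 17.21 log2 on GFP- arrays. S100a5 itself averaged 16.60 ± 0.34 log2 in GFP+ cells and 15.07 ± 0.32 log2 in GFP- cells with octanoic acid, and 16.45 ± 0.23 log2 in GFP+ cells and 15.13 ± 0.18 log2 in GFP- cells with clean air (SD, n = 4 each), a difference that the sorting gate itself sets.

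A dividing cell copies its DNA once and then parts the copies. Before and during copying, E2F transcription factors switch on genes for the helicase, the nucleotide supply and the sliding clamp. Later a second wave of genes builds the spindle, condenses the chromosomes and times their separation, and many of these genes carry a short promoter element called the cell cycle genes homology region (CHR), often together with CCAAT boxes. In the olfactory epithelium mature neurons do not divide, and new neurons arise through life from globose basal cells, with horizontal basal cells held in reserve. Dividing precursors of blood cells transcribe the same genes, so the genes mark division and not a cell type.

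Promoter sequences are shown because the 2 gene classes are known for different promoter elements. The reference table (RefSeq, GRCm38.p6) held a promoter, 250 bases before to 50 bases after the start of the gene, for 33 of the 40 genes, 15 for replication and 18 for mitosis. The letters searched on both strands were, for E2F, the string TTTGGCG, the string TTTCCCG, the string TTTCGCG, the string TTGGCGC and the string TTCCCGC, any of which can overlap another. For the CHR they were the string TTTGAA and the string TTCGAA, and for the CCAAT box its name. E2F letters stood in 9 of 15 replication promoters (60%) and 4 of 18 mitosis promoters (22.2%), against 10.4% of all 32851 promoters in the table. CHR letters stood in 2 of 15 replication promoters (13.3%) and 14 of 18 mitosis promoters (77.8%), against 19.2% of all promoters. CCAAT stood in 9 of 15 replication promoters (60%) and 15 of 18 mitosis promoters (83.3%), against 37.4% of all promoters. A gene with several promoters in the table was counted once, as holding the letters when any of its promoters did. The share of all promoters counts each promoter separately. A match is a string of letters and not a known site. The 8 promoters below, 4 for each class, belong to the genes with the largest mean falls in GFP+ cells among those with an E2F or CHR match. The ranking used the raw log2 difference over both treatments, and Mcm3 entered although its signal was too dim for a fold to be given. Capitals mark the E2F and CHR matches, and each sequence runs in the direction of transcription.
E2f8 (chr7:48881547-48881846, minus strand): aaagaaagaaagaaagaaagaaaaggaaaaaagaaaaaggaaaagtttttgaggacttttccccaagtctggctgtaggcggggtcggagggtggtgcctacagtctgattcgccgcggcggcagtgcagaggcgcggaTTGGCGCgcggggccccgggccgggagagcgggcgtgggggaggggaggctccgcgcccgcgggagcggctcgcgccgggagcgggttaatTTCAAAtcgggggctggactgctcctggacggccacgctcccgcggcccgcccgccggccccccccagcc
Mcm3 (chr1:20820263-20820562, minus strand): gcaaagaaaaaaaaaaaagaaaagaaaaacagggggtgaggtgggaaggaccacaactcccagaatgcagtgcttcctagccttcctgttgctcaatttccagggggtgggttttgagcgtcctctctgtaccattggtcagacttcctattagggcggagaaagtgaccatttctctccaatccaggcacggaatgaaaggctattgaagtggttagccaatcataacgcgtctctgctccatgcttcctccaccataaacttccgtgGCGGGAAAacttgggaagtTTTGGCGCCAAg
Mcm2 (chr6:88898731-88899030, minus strand): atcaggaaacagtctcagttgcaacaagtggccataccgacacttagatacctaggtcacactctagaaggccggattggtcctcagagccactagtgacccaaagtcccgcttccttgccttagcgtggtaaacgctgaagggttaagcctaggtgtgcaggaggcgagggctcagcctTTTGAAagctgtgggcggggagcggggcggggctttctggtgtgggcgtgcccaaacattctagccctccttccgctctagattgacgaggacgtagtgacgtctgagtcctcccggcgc
Mcm6 (chr1:128359656-128359955, minus strand): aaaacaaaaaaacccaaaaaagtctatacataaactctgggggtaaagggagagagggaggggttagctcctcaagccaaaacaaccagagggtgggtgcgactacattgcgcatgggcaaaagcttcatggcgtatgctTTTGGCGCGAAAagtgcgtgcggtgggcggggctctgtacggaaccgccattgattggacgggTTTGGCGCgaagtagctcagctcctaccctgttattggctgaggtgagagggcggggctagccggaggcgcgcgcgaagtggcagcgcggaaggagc
Mki67 (chr7:135716330-135716629, minus strand): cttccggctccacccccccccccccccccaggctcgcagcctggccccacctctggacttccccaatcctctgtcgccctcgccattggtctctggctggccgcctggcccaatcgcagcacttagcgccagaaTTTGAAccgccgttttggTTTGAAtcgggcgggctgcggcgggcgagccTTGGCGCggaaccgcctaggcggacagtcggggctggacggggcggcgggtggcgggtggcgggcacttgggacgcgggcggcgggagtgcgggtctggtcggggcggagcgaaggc
Ube2c (chr2:164769679-164769978, plus strand): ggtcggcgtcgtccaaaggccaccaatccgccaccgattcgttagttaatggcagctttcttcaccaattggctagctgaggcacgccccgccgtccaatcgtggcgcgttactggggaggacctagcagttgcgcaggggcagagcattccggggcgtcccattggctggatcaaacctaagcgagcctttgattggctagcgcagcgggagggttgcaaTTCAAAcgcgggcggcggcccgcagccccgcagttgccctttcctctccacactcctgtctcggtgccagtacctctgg
Ccnb2 (chr9:70421505-70421804, minus strand): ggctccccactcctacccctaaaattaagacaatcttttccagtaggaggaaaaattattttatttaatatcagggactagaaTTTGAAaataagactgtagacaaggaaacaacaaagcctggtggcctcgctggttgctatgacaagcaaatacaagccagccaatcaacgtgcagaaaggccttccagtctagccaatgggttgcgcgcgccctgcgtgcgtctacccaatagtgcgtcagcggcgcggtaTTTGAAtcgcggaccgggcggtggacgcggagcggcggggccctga
Nusap1 (chr2:119618048-119618347, plus strand): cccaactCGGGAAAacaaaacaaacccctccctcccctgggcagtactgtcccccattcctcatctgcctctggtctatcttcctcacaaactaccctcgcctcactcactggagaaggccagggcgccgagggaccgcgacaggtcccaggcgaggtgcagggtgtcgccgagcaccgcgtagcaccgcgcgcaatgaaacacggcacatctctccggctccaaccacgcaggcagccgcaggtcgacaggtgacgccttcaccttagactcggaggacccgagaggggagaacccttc
Of the replication promoters printed, those of Mcm3 and Mcm6 held 5 overlapping or neighbouring E2F matches each and no CHR match, that of E2f8 held 1 of each kind, and that of Mcm2 held a CHR match only. Of the mitosis promoters printed, Mki67 and Ccnb2 held 2 CHR matches each, Mki67 an E2F match as well, Ube2c held 1 CHR match, and Nusap1 held an E2F match only.

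The first comparison asked how GFP+ cells differ from GFP- cells of the same mice, under each treatment. GFP+ cells carried less RNA of most cell cycle genes. No cell cycle gene was higher, where 6.26% of all genes were called higher with octanoic acid and 5.83% with clean air. With octanoic acid 31 of 40 genes were lower in GFP+ cells, against 10.9% of all 19505 genes called lower, and with clean air 27 of 40 were lower, against 9.58% of all genes. The median difference, GFP+ minus GFP- of the same pool, was -1.53 log2 with octanoic acid and -1.23 log2 with clean air, where the median over all genes was 0.11 log2 under both treatments. A gene counts as lower, or as fallen, in GFP+ cells relative to GFP- cells when its adjusted p was under 0.05 (limma, 4 pools per treatment, Benjamini-Hochberg over all genes). Both treatments were fitted together over the 8 pools, with 1 shared estimate of the spread for each gene. The adjusted p of a treatment thus also depends on the pools of the other treatment, and not only on the SD printed beside it. 26 genes fell under both treatments and 32 under at least 1.

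Many of these genes were dim. The median of the array's negative-control probe sets, 6.20 log2, served as background, and a gene counts as at background when its group mean was below that value or exceeded it by no more than the SD of the group. By that measure 31 of 40 genes were at background in GFP+ cells with octanoic acid and 30 with clean air, while 14 were at background in GFP- cells under each treatment. Where the GFP+ mean was at background the fold is a lower bound, and where both means were there no fold is given, even for a gene that passed the test. When array values under the background were raised to it, 17 genes were still lower with octanoic acid and 12 with clean air. The shares of all genes were then 7.15% and 5.87%. With octanoic acid the calls lost were those of Mcm3, Mcm4, Mcm5, Tyms, Cdt1, Cdk1, Top2a, Bub1, Aurkb, Cenpf, Kif20a, Tpx2, Cdc20 and Prc1. With clean air they were those of Mcm2, Mcm3, Mcm5, Uhrf1, Cdk1, Top2a, Bub1, Bub1b, Aurkb, Birc5, Cenpe, Cenpf, Kif20a, Tpx2 and Cdc20.

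**Figure D1:**
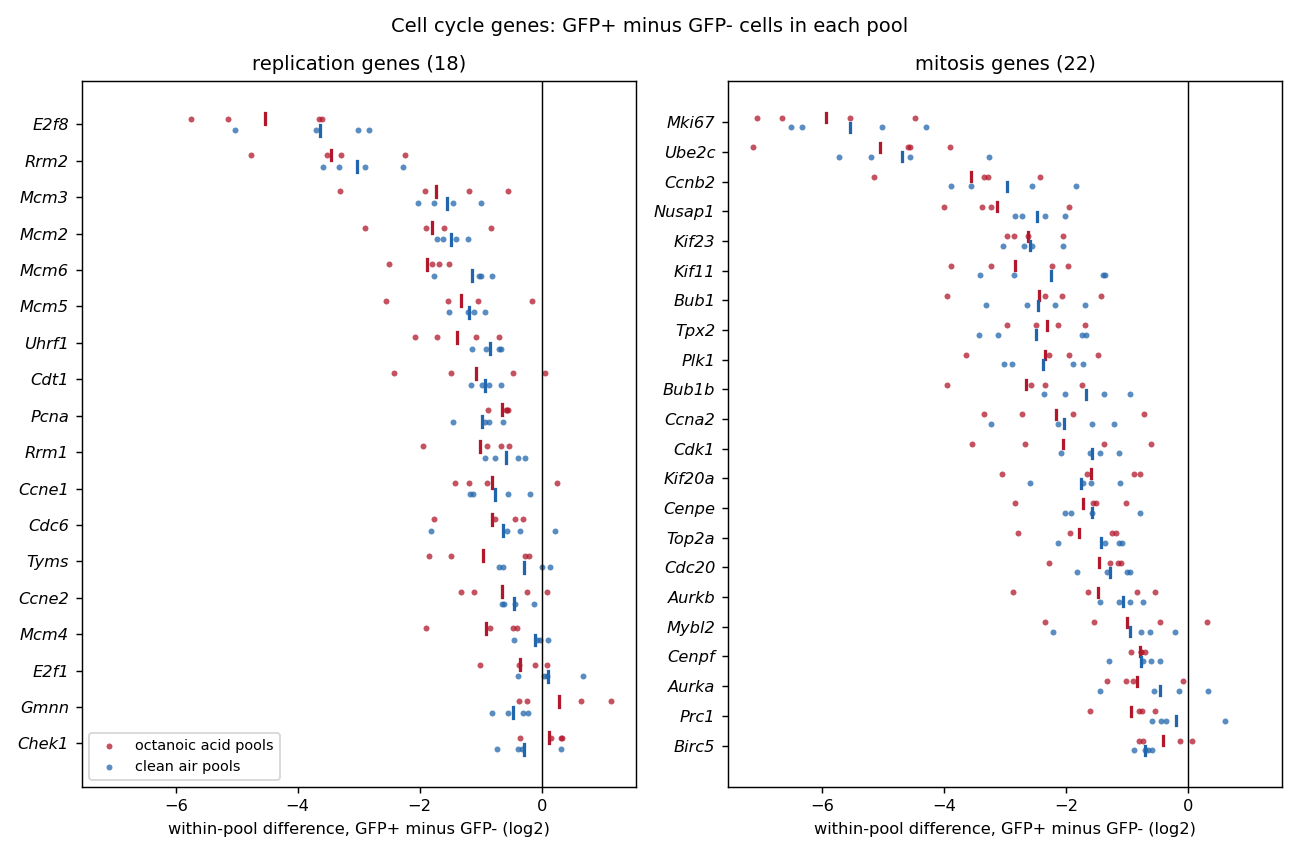
Difference in log2 signal, GFP+ minus GFP- cells of the same pool, for each of the 40 cell cycle genes (points are the 4 pools of a treatment, short bars their mean). The mean lay below 0 for 38 genes with octanoic acid and 39 with clean air, and Mki67 lay farthest down, at -5.93 log2 with octanoic acid and -5.54 log2 with clean air.

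Replication genes fell in part. In GFP+ cells 12 of 18 were lower with octanoic acid and 8 of 18 with clean air, against 10.9% and 9.58% of all genes. None was higher. With array values raised to the background, 7 were lower with octanoic acid and 4 with clean air, against 7.15% and 5.87% of all genes. As deposited, the median difference of replication genes was -0.98 log2 with octanoic acid and -0.81 log2 with clean air. Leaving out 1 pool at a time gave 8 to 13 genes with octanoic acid and 5 to 10 with clean air, where the lowest count was that without clean air pool 4. Mcm2 to Mcm6 encode subunits of the replicative helicase, which unwinds DNA ahead of the polymerases, and of the 5 measured 5 were lower with octanoic acid and 4 with clean air. Mcm6 read 5.76, 6.38, 6.34 and 6.83 log2 in GFP+ cells with octanoic acid, against 7.29, 8.07, 8.14 and 9.33 in GFP- cells of the same pools. With clean air Mcm6 read 6.37, 6.58, 6.54 and 6.6 log2 in GFP+ cells, against 7.19, 7.57, 7.58 and 8.37 in GFP- cells. The sorted samples did not overlap under either treatment, and GFP- cells of octanoic acid pool 4 were the brightest. Mcm6 fell at least 3.41-fold in GFP+ cells with octanoic acid (-1.88 ± 0.43 log2, SD, n = 4; limma adjusted p = 3.57e-05) and 2.22-fold with clean air (-1.15 ± 0.42 log2; limma adjusted p = 0.00179). Mcm2 fell at least 2.63-fold with octanoic acid and at least 1.78-fold with clean air. The clean air call of Mcm2 was lost when array values were raised to the background. Mcm3 and Mcm5 passed under both treatments with both sorted samples at background, and their clean air calls were lost without clean air pool 3 and without pool 4, that of Mcm5 also without pool 2.

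Mcm4 was the helicase gene called under octanoic acid and not under clean air. It read 8.40, 8.66, 6.78 and 8.72 log2 in GFP+ cells with octanoic acid, against 8.87, 9.07, 8.68 and 9.57 in GFP- cells, and 8.74, 8.72, 8.46 and 8.43 log2 in GFP+ cells with clean air, against 8.77, 8.79, 8.91 and 8.33 in GFP- cells. The sorted samples overlapped under both treatments, and the GFP+ array of octanoic acid pool 3 was the lowest of all. The difference was -0.91 ± 0.69 log2 with octanoic acid (SD, n = 4; limma adjusted p = 0.0173) and -0.11 ± 0.24 log2 with clean air (limma adjusted p = 0.799), and the octanoic acid call was lost without pool 3 and without pool 4. The GFP+ array of octanoic acid pool 3 also had the highest median of 9 sustentacular cell markers, 10.50 log2 against 7.49 to 7.77 log2 on the other octanoic acid GFP+ arrays, and their part in the Mcm4 value was not tested.

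The enzymes that supply nucleotides were lower in 3 of 3 cases with octanoic acid and in 1 of 3 with clean air. Rrm2, the small subunit of ribonucleotide reductase, which makes deoxynucleotides, read 6.70, 6.81, 6.37 and 6.91 log2 in GFP+ cells with octanoic acid, against 8.94, 10.33, 9.66 and 11.67 in GFP- cells. With clean air Rrm2 read 6.73, 6.45, 6.52 and 6.80 log2 in GFP+ cells, against 9.0, 9.78, 9.42 and 10.39 in GFP- cells. GFP+ arrays were close to one another, a little above the background of 6.20 log2, and far under every GFP- array. Rrm2 fell 11-fold in GFP+ cells with octanoic acid (-3.45 ± 1.04 log2, SD, n = 4; limma adjusted p = 1.5e-05) and 8.14-fold with clean air (-3.02 ± 0.57 log2; limma adjusted p = 4.87e-05). The large subunit Rrm1 differed far less, by -1.01 ± 0.64 log2 with octanoic acid (limma adjusted p = 0.00808) and -0.59 ± 0.31 log2 with clean air, which did not pass (limma adjusted p = 0.108). Rrm1 was called lower with clean air when octanoic acid pool 4 was left out. Thymidylate synthase, Tyms, fell at least 1.86-fold with octanoic acid and gave -0.30 ± 0.43 log2 with clean air, which did not pass. The octanoic acid call of Tyms was lost without octanoic acid pool 3, without pool 4, and when arrays were centred on their median, quantile normalized or centred on the olfactory receptors.

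Of the 4 genes for origin licensing and the sliding clamp, Pcna and Cdt1 were lower with octanoic acid and Pcna alone with clean air. Pcna, the clamp that holds polymerases on DNA and also serves DNA repair, read 13.45, 13.51, 13.38 and 13.30 log2 in GFP+ cells with octanoic acid, against 14.01, 14.09, 13.95 and 14.18 in GFP- cells. With clean air Pcna read 13.28, 13.45, 12.96 and 13.17 log2 in GFP+ cells, against 13.91, 14.38, 13.82 and 14.63 in GFP- cells. The groups did not overlap, yet GFP+ cells were far above background on every array. Pcna fell 1.57-fold with octanoic acid (-0.65 ± 0.16 log2, SD, n = 4; limma adjusted p = 0.0169) and 1.96-fold with clean air (-0.97 ± 0.35 log2; limma adjusted p = 0.00125). Cdt1, which loads the helicase, gave -1.08 ± 1.10 log2 with octanoic acid (limma adjusted p = 0.0363) and -0.92 ± 0.20 log2 with clean air, which did not pass (limma adjusted p = 0.0761). Cdt1 was called lower with clean air without octanoic acid pool 3, without octanoic acid pool 4, and with the arrays as unpaired groups. Cdc6, the other loader, and Gmnn, which encodes the Cdt1 inhibitor geminin, were at background in all 4 groups and passed in neither treatment. The octanoic acid calls of Pcna and Cdt1 were lost without octanoic acid pool 4, and that of Cdt1 also without octanoic acid pool 2 and without clean air pool 4. Both were lost with arrays centred on their median or on the olfactory receptors, and that of Cdt1 also after quantile normalization.

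Among 6 genes of entry into replication, methylation upkeep and the checkpoint, E2f8 and Uhrf1 were lower under both treatments and the other 4 passed in neither. E2f8, an atypical E2F that represses E2F target genes late in replication, read 4.69, 4.36, 5.55 and 5.41 log2 in GFP+ cells with octanoic acid, against 8.35, 9.51, 9.15 and 11.16 in GFP- cells. With clean air E2f8 read 5.31, 5.32, 4.63 and 5.24 log2 in GFP+ cells, against 8.32, 8.15, 9.67 and 8.94 in GFP- cells. Every GFP+ array was under the background and every GFP- array well above it. E2f8 fell at least 10.2-fold with octanoic acid (-4.54 ± 1.08 log2, SD, n = 4; limma adjusted p = 7.65e-06) and at least 5.93-fold with clean air (-3.64 ± 1.00 log2; limma adjusted p = 5.05e-05). Uhrf1, which brings the maintenance methyltransferase to newly copied DNA, fell by less, 2.63-fold with octanoic acid and 1.81-fold with clean air, where its call was lost without clean air pool 1, without pool 4, after quantile normalization and with receptor centring. The checkpoint kinase gene Chek1 was above background in every group and gave 0.11 ± 0.33 log2 with octanoic acid and -0.28 ± 0.44 log2 with clean air, neither of which passed. E2f1, the activating E2F, and the E-type cyclins Ccne1 and Ccne2 were at background in all 4 groups.

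**Figure D2:**
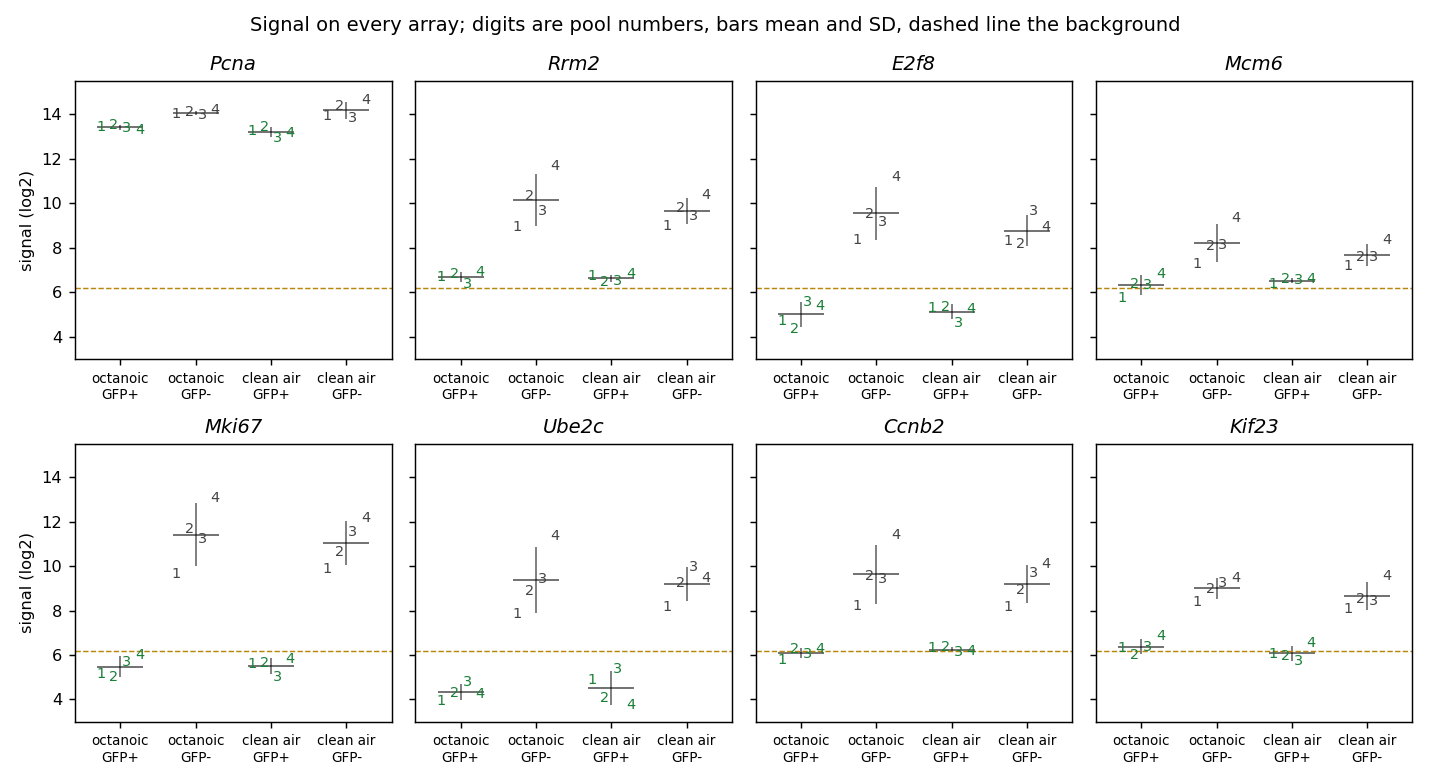
Log2 signal on every array of 4 replication genes (top row) and 4 mitosis genes (bottom row) in the 4 groups; digits are pool numbers, the cross is the mean with its SD, and the dashed line is the background of 6.20 log2. Pcna lay far above the line in all groups, Mki67, Ube2c and E2f8 lay under it in every GFP+ sample, and GFP- pools spread widely.

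Most mitosis genes fell in the values as deposited. Of 22 measured, 19 were lower in GFP+ cells with octanoic acid and 19 with clean air, 18 of them under both treatments. None was higher. Of all genes 10.9% were lower with octanoic acid and 9.58% with clean air. With array values raised to the background, 10 were lower with octanoic acid and 8 with clean air, against 7.15% and 5.87% of all genes. As deposited, the median difference was -2.11 log2 with octanoic acid and -1.72 log2 with clean air. In GFP+ cells 20 of the 22 were at background with octanoic acid and 21 with clean air, so most of the folds are lower bounds. Mki67, the coat protein of mitotic chromosomes known as Ki-67, showed the largest difference of all 40 genes. It read 5.15, 5.02, 5.70 and 6.02 log2 in GFP+ cells with octanoic acid, against 9.63, 11.67, 11.24 and 13.08 in GFP- cells. With clean air Mki67 read 5.58, 5.63, 5.0 and 5.82 log2 in GFP+ cells, against 9.87, 10.64, 11.51 and 12.16 in GFP- cells. No GFP+ array was above the background, and in GFP- cells pool 1 was the lowest and pool 4 the highest under both treatments. Mki67 fell at least 36.8-fold with octanoic acid (-5.93 ± 1.16 log2, SD, n = 4; limma adjusted p = 1.47e-06) and at least 28.7-fold with clean air (-5.54 ± 1.07 log2; limma adjusted p = 2.87e-06).

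Of the cyclins, Cdk1 and the transcription factor Mybl2, 3 of 4 were lower under each treatment. Ccnb2, a B-type cyclin that drives entry into mitosis, read 5.76, 6.26, 6.06 and 6.25 log2 in GFP+ cells with octanoic acid, against 8.19, 9.54, 9.40 and 11.40 in GFP- cells. With clean air Ccnb2 read 6.30, 6.36, 6.12 and 6.19 log2 in GFP+ cells, against 8.14, 8.92, 9.67 and 10.09 in GFP- cells. The groups were clearly apart, with GFP+ arrays within a narrow range at background. Ccnb2 fell at least 10.6-fold with octanoic acid (limma adjusted p = 5.6e-05) and at least 7.67-fold with clean air (limma adjusted p = 0.000263). Ccna2, the A-type cyclin active in replication and mitosis, fell at least 4.48-fold with octanoic acid and at least 3.7-fold with clean air. Cdk1, the kinase these cyclins activate, passed under both treatments with both sorted samples at background, and Mybl2 passed under neither. The clean air call of Cdk1 was lost without clean air pool 4.

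The 6 genes of chromosomes and mitotic kinases included Top2a, which untangles sister chromosomes, Plk1, Aurka and Aurkb, kinases of the spindle and chromosomes, and Birc5, the partner of Aurkb; 4 were lower with octanoic acid and 5 with clean air. Plk1 fell at least 5.05-fold with octanoic acid and at least 4.5-fold with clean air. Top2a fell at least 1.84-fold with octanoic acid and at least 1.46-fold with clean air. Aurka passed under neither treatment. It gave -0.83 ± 0.53 log2 with octanoic acid (SD, n = 4, limma adjusted p = 0.0575) and -0.45 ± 0.76 log2 with clean air (limma adjusted p = 0.317). Its octanoic acid difference passed without octanoic acid pool 1, without clean air pool 2 or 3, unpaired, and with dim genes left out. Birc5 gave -0.40 ± 0.43 log2 with octanoic acid, which did not pass (SD, n = 4, limma adjusted p = 0.142). With clean air Birc5 fell at least 1.15-fold (limma adjusted p = 0.0156). The clean air calls of Aurkb and Birc5 were lost without clean air pool 1, 3 or 4, and that of Aurkb also without pool 2. Both were also lost after array median centring and quantile normalization, and that of Birc5 with receptor centring. All 4 kinetochore and checkpoint genes, Bub1, Bub1b, Cenpe and Cenpf, were lower under both treatments, though the octanoic acid call of Cenpf was lost with receptor centring. Bub1, Cenpf and Aurkb passed under both treatments with both sorted samples at background. Their calls, and both calls of Top2a, were lost when array values were raised to the background. So were the clean air calls of Birc5, Bub1b and Cenpe. Bub1b, a checkpoint protein that delays chromosome separation, fell at least 2.99-fold with octanoic acid and at least 1.85-fold with clean air, and Cenpe, a motor of the kinetochore, at least 3.24-fold and at least 2.57-fold in the same order.

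Spindle and midzone genes were lower in 6 of 6 cases with octanoic acid and 5 of 6 with clean air. Among them Kif20a had both sorted samples at background with octanoic acid and fell at least 1.54-fold with clean air. Both calls of Kif20a and of Tpx2 were lost when array values were raised to the background, as was the octanoic acid call of Prc1. Kif23, a motor of the central spindle needed for cells to part, read 6.32, 6.0, 6.37 and 6.84 log2 in GFP+ cells with octanoic acid, against 8.37, 8.97, 9.23 and 9.46 in GFP- cells. With clean air Kif23 read 6.04, 5.97, 5.75 and 6.52 log2 in GFP+ cells, against 8.09, 8.52, 8.45 and 9.56 in GFP- cells. GFP+ cells were at background, and Kif23 fell at least 5.96-fold with octanoic acid (limma adjusted p = 2.07e-06) and at least 5.18-fold with clean air (limma adjusted p = 2.65e-06). Kif11, the motor that pushes spindle poles apart, fell 7.10-fold with octanoic acid and at least 4.74-fold with clean air. Its GFP+ mean with octanoic acid, 6.68 ± 0.47 log2, only just counted as above background, with 3 of 4 arrays over it. Nusap1, a microtubule binder of the spindle, fell at least 5.14-fold with octanoic acid and at least 3.67-fold with clean air, and Tpx2, which activates Aurka, at least 2.47-fold and at least 2.32-fold in the same order. Prc1, which bundles midzone microtubules, differed by -0.93 ± 0.47 log2 with octanoic acid (limma adjusted p = 0.0146) and by -0.20 ± 0.55 log2 with clean air, which did not pass (limma adjusted p = 0.626); the octanoic acid call was lost without octanoic acid pool 4 and with receptor centring.

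Ube2c and Cdc20 work with the anaphase-promoting complex, which marks cyclins and securin for destruction, and both were lower under both treatments. Ube2c, its ubiquitin-conjugating enzyme, read 3.95, 4.31, 4.81 and 4.23 log2 in GFP+ cells with octanoic acid, against 7.86, 8.87, 9.40 and 11.36 in GFP- cells. With clean air Ube2c read 4.88, 4.05, 5.39 and 3.75 log2 in GFP+ cells, against 8.14, 9.25, 9.94 and 9.48 in GFP- cells. All GFP+ arrays were under the background and all GFP- arrays above it. Ube2c fell at least 9.01-fold with octanoic acid (-5.05 ± 1.42 log2, SD, n = 4; limma adjusted p = 1.31e-05) and at least 8.01-fold with clean air (-4.68 ± 1.06 log2; limma adjusted p = 2.64e-05). Cdc20, which activates the complex, had both sorted samples at background.

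The 2 classes were set side by side pool by pool, with no test. The median difference of mitosis genes was -1.32, -1.76, -1.94 and -3.00 log2 in octanoic acid pools 1 to 4, and that of replication genes -0.51, -0.74, -1.05 and -1.89 log2 in the same pools. With clean air the mitosis median was -1.36, -1.5, -2.20 and -2.11 log2 and the replication median -0.69, -0.68, -0.87 and -1.12 log2. The mitosis median was the lower of the 2 in all 8 pools, by between 0.67 and 1.33 log2. All GFP+ arrays lay under all GFP- arrays for 20 of 22 mitosis genes under each treatment, and for 9 of 18 replication genes with octanoic acid and 10 of 18 with clean air, against 10.7% of all genes under each treatment. The size of the gap depended on the treatment of dim values: over group means it was -1.12 log2 with octanoic acid and -0.91 log2 with clean air, and -0.34 and -0.47 log2 in the same order when array values were raised to the background.

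Other genes of the pathway, outside the 43, were counted for comparison. Of 43 measured further replication genes, 6 were lower in GFP+ cells with octanoic acid and 4 with clean air, with none higher and median differences of -0.19 and -0.08 log2. These shares, 14.0% and 9.30%, were close to the 10.9% and 9.58% of all genes. Among them Asf1b, a histone chaperone, fell 3.38-fold with octanoic acid and 2.81-fold with clean air, and Pola2, a subunit of the priming polymerase, 1.45-fold and 1.55-fold in the same order. Of 52 further mitosis genes, 27 were lower with octanoic acid and 23 with clean air, with none higher and median differences of -0.89 and -0.72 log2. The spindle motor Kif15 fell at least 2.42-fold with octanoic acid and at least 1.84-fold with clean air, and the kinetochore gene Nuf2 at least 3.20-fold and at least 3.45-fold in the same order.

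The GFP- arrays of a treatment varied in cell cycle signal from pool to pool. The median SD of the 40 genes over the 4 GFP- arrays was 0.75 log2 with octanoic acid and 0.43 log2 with clean air, against 0.28 and 0.26 log2 over all genes. In GFP+ cells it was 0.31 and 0.29 log2, against 0.32 and 0.24 log2 over all genes. GFP- cells of octanoic acid pool 4 gave the highest of the 4 GFP- values for 37 of 40 genes, 22 of 22 mitosis genes and 15 of 18 replication genes, and those of pool 1 the lowest for 29. With clean air pool 1 was lowest for 28 genes, and pools 4 and 3 were highest for 21 and 16.

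**Figure D3:**
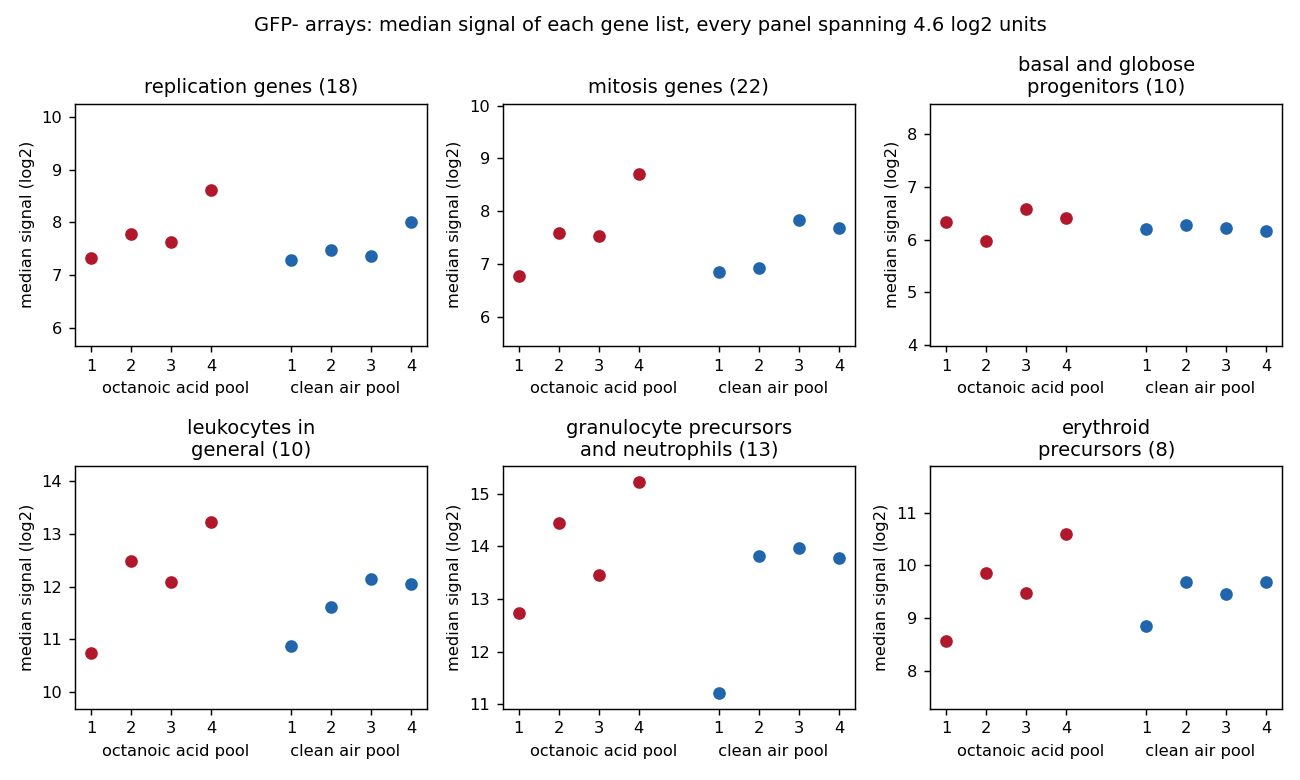
Log2 signal in GFP- cells, pool by pool, of the cell cycle lists and of marker lists (median of each list). With octanoic acid the mitosis list read 6.78 log2 in pool 1 and 8.70 in pool 4, and the leukocyte list 10.75 and 13.22. The progenitor list read 6.34 and 6.41 in the same pools, close to the background. Its summed level, which is not drawn, read 11.20 and 11.71 log2.

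Markers of other cells that hold dividing precursors moved with the sort and, in part, with the pools. Of 10 leukocyte markers 10 were lower in GFP+ cells under each treatment, with summed levels of 10.29 to 11.86 log2 in GFP+ cells and 16.06 to 17.89 log2 in GFP- cells with octanoic acid, and 10.18 to 11.44 log2 in GFP+ cells and 15.60 to 17.02 log2 in GFP- cells with clean air. In GFP- cells their median was 10.75, 12.49, 12.08 and 13.22 log2 in octanoic acid pools 1 to 4 and 10.88, 11.61, 12.15 and 12.05 log2 in clean air pools 1 to 4, so pool 1 was the lowest and octanoic acid pool 4 the highest, as for the mitosis genes. Of 13 markers of granulocyte precursors and neutrophils 11 were lower under each treatment, with summed levels of 9.43 to 12.40 log2 in GFP+ cells and 19.10 to 20.51 log2 in GFP- cells with octanoic acid, and 9.80 to 11.10 log2 in GFP+ cells and 18.57 to 19.87 log2 in GFP- cells with clean air; Ctsg and Ms4a3 lay under the background in GFP- cells. Elane, a protease made by granulocyte precursors, read 9.30, 8.71, 8.48 and 12.58 log2 in GFP- cells of octanoic acid pools 1 to 4 and 9.62, 8.51, 10.46 and 9.62 log2 in those of clean air.

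Of 8 erythroid markers 5 were lower with octanoic acid and 3 with clean air, with summed levels of 13.27 to 13.61 log2 in GFP+ cells and 13.96 to 15.49 log2 in GFP- cells with octanoic acid, and 13.32 to 13.50 log2 in GFP+ cells and 13.85 to 14.58 log2 in GFP- cells with clean air. Klf1, Epor and Rhd lay under the background in GFP- cells. The erythroid median there was 8.57, 9.86, 9.48 and 10.59 log2 over octanoic acid pools 1 to 4. Over clean air pools 1 to 4 it was 8.85, 9.69, 9.46 and 9.68 log2, with pool 2 the highest. Of 8 B cell markers 4 were lower under each treatment, and the precursor markers Vpreb1, Vpreb3, Igll1 and Dntt lay under the background in GFP- cells. The B cell sum, which includes Ebf1, a gene of olfactory neurons too, was 16.90 to 17.25 log2 in GFP+ cells and 16.88 to 17.13 log2 in GFP- cells with octanoic acid, and 17.08 to 17.24 log2 in GFP+ cells and 16.73 to 17.01 log2 in GFP- cells with clean air. Immature neuron markers were lower for 7 of 12 with octanoic acid and 6 of 12 with clean air, and microvillous and tuft cell markers for 7 of 8 and 8 of 8. Markers of basal and globose progenitors were lower for 6 of 10 under each treatment, with summed levels of 9.96 to 10.07 log2 in GFP+ cells and 11.20 to 11.71 log2 in GFP- cells with octanoic acid, and 10.00 to 10.45 log2 in GFP+ cells and 11.24 to 11.60 log2 in GFP- cells with clean air. Kit, a receptor of globose basal cells and of some blood cells, fell at least 13.9-fold in GFP+ cells with octanoic acid and at least 12.1-fold with clean air. Neurog1, Krt5, Krt14 and Trp63 lay under the background in GFP- cells under both treatments, and Lgr5 did with clean air. The progenitor median in GFP- cells lay close to the background. It was 6.34, 5.98, 6.58 and 6.41 log2 over octanoic acid pools 1 to 4 and 6.20, 6.28, 6.21 and 6.16 log2 over clean air pools. By this median octanoic acid pool 4 was not the highest. By the sum it was, with 11.20, 11.37, 11.58 and 11.71 log2 over octanoic acid pools 1 to 4. Over clean air pools the sum was 11.40, 11.24, 11.60 and 11.40 log2. In GFP- cells of octanoic acid pools 1 to 4 Kit read 9.09, 10.19, 10.05 and 10.66 log2, and Sox2 7.56, 6.59, 7.09 and 6.93 log2. The part of any of these cell types in the cell cycle differences was not tested.

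The last comparisons asked whether octanoic acid changed the cell cycle genes. In no comparison did any of the 40 genes pass: 0 were called for the effect on the within-pool difference, 0 in GFP+ cells and 0 in GFP- cells, against 0% of all 19505 genes in each. At an unadjusted limma p under 0.05 there were 4, 2 and 2 of the 40 genes in that order, against 4.47%, 3.67% and 3.8% of all genes. For the effect on the within-pool difference the 4 were Mcm4 (-0.80 log2, 95% interval -1.5 to -0.09), Mcm6 (-0.73, -1.35 to -0.10), Prc1 (-0.73, -1.43 to -0.03) and Gmnn (0.76, 0.03 to 1.5). In GFP+ cells they were Birc5 and Prc1, and in GFP- cells Mcm2 (0.70 log2, 95% interval 0.08 to 1.31) and Uhrf1 (0.72 log2, 0.02 to 1.42). The smallest limma adjusted p of any of the 40 genes was 0.94, 0.955 and 0.985 in the same order. A p that misses the threshold does not show that octanoic acid left these genes as they were.

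**Figure D4:**
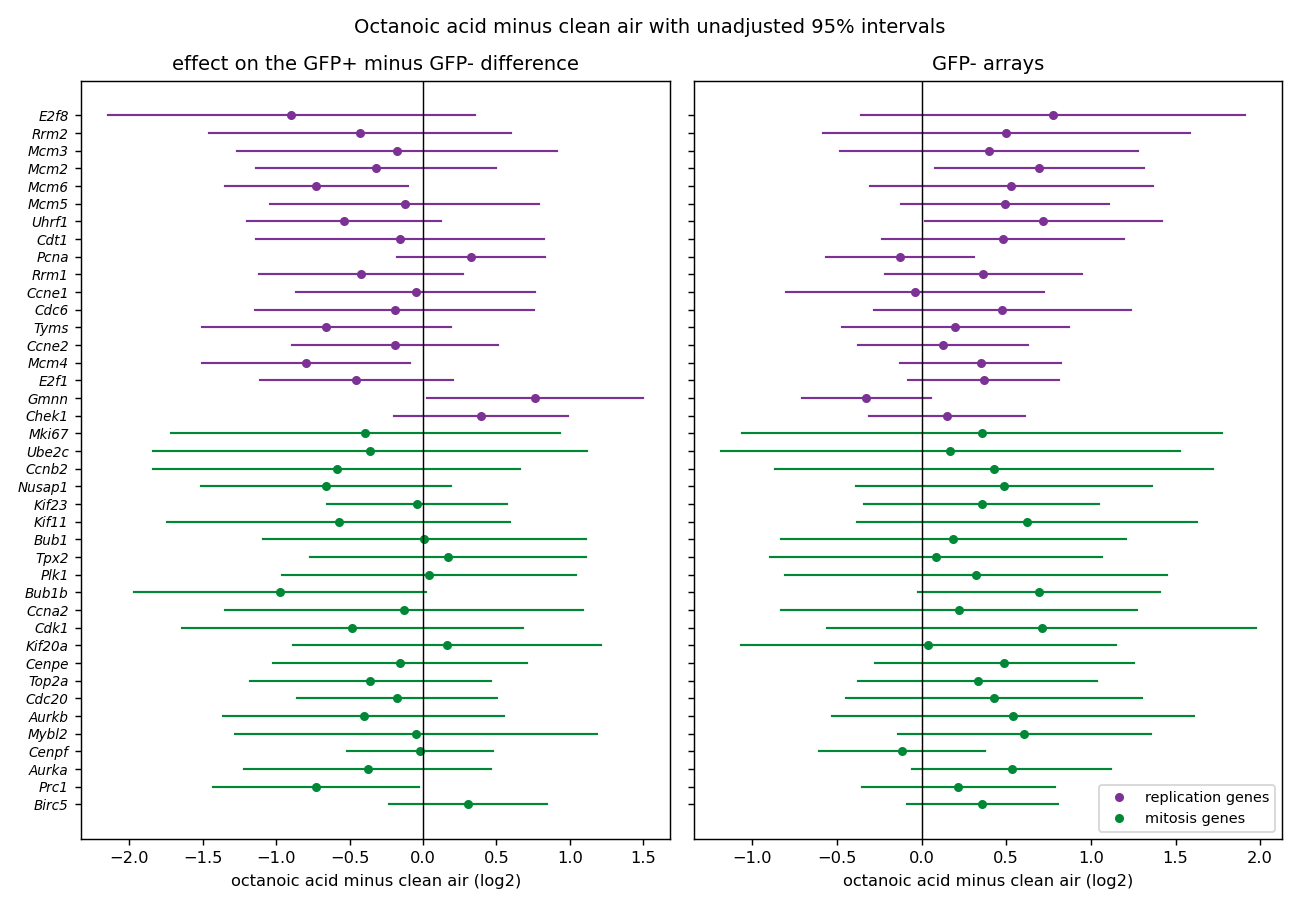
Octanoic acid minus clean air for each cell cycle gene in log2 units, left for the GFP+ minus GFP- difference and right for GFP- arrays, with unadjusted limma 95% intervals (4 pools per treatment). In GFP- cells 36 of 40 differences lay above 0, and no gene passed after adjustment in either panel.

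In GFP- cells 36 of the 40 genes gave a positive difference, octanoic acid minus clean air, with a median of 0.37 log2, against 0.03 log2 over all genes. Without octanoic acid pool 4, 23 of 40 were positive and the median was 0.06 log2, and without octanoic acid pool 1 the median was 0.66 log2; with receptor centring it was 0.24 log2, against -0.10 log2 over all genes. For the within-pool difference the median effect was -0.26 log2 over the 40 genes, against -0.03 log2 over all genes, and over the 40 it was 0.04 log2 without octanoic acid pool 4, -0.53 log2 without octanoic acid pool 1, -0.13 log2 without clean air pool 1 and -0.39 log2 without clean air pool 3. With receptor centring it was -0.01 log2, with 20 of 40 genes positive, against 0.22 log2 over all genes. Mki67 averaged 11.40 log2 in GFP- cells with octanoic acid and 11.04 log2 in GFP- cells with clean air, and the 2 sets of pools overlapped.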

How the data were processed

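The deposited table gives a log2 signal for each probe set on each of 16 arrays. The authors used Affymetrix Expression Console, per the submitters' processing notes, with a version and summary method not given in the sources used here, and that the scale is log2 follows from the range of the values. Of 28846 probe sets 19572 carried 1 gene symbol; a gene with several was represented by its brightest probe set, for 19505 genes. The members, lists and tests were chosen with earlier results of these data known. Genes outside the 40 were named by size of fall among those called in both treatments, plus a few named control genes and markers.

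Two-sided moderated tests (limma 3.58.1, R 4.3.3) were fitted to all genes on the within-pool difference GFP+ minus GFP- of the 8 pools, which blocks on the shared mice, and on GFP+ and GFP- arrays between treatments. Benjamini-Hochberg adjustment ran over all genes, with a threshold of 0.05. The fit was checked on simulated data. Background means the median signal of the 5222 negative controls, 6.20 log2 on all arrays together and between 5.80 and 6.77 log2 array by array; since 5% of these controls exceeded 10.4 log2, a value over the background is no proof of expression. Arrays have no read depth, and 4 pools per treatment limit the precision.

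The labels number the pools of both treatments 1 to 4. Same-numbered octanoic acid and clean air pools correlated in their deviations from the group means at 0.179, 0.110, 0.237 and 0.100 for the within-pool differences, at 0.371, 0.100, 0.219 and 0.138 in GFP+ cells and at 0.408, 0.100, -0.0986 and 0.153 in GFP- cells. The best match of an octanoic acid pool with a differently numbered clean air pool was higher in some cases. For the within-pool differences it was 0.149 for pool 2 and 0.122 for pool 4. In GFP+ cells it was 0.228 for pool 2, and in GFP- cells 0.139, 0.0980 and 0.192 for pools 2, 3 and 4. For the remaining pools the same number gave the higher value. Alternatives were other scalings, a filter on dim genes, values raised to the background, the mean of a gene's probe sets, another variance moderation, leaving out pools, and the replicate block.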

Additional observations from a re-analysis of the deposited data

Results flagged for a closer look

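The within-pool differences of the 40 genes were screened treatment by treatment with Dixon's test for a pool far from the other 3, which chance alone flags in about 1 of 20 groups; 2 of 80 groups stood out. Pcna, the sliding clamp gene, gave -0.88 log2 in octanoic acid pool 4, GFP+ minus GFP-, against -0.58 to -0.56 log2 in the other 3 pools. Cdc20, the activator of the anaphase-promoting complex, gave -2.28 log2 in octanoic acid pool 4, against -1.28 to -1.10 log2 in the other 3 pools. In both cases the pool is the one whose GFP- cells were the brightest for 37 of the 40 genes.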

How the results depend on the processing

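No called difference changed sign under any alternative run. Some alternatives added calls. With octanoic acid these were Ccne1, Ccne2, Cdc6, Aurka and Mybl2, and with clean air Ccne1, Cdt1 and Rrm1. Leaving out 1 pool at a time gave 26 to 33 genes lower with octanoic acid (8 to 13 replication, 18 to 20 mitosis) and 21 to 29 with clean air (5 to 10 replication, 16 to 19 mitosis), and 0 higher. Raising values to the background gave 17 genes lower with octanoic acid (7 replication, 10 mitosis) and 12 with clean air (4 replication, 8 mitosis) (the cause was not tested). Leaving out octanoic acid pool 3 and clean air pool 4, which stood apart in an earlier analysis of these data, gave 5 replication genes with clean air. The gap between the class medians, mitosis minus replication, was -1.28 log2 with octanoic acid and -1.26 log2 with clean air when dim genes were left out, -0.34 and -0.47 log2 with values raised to the background, -0.97 log2 with octanoic acid without those 2 pools, and -1.35 to -0.97 log2 with octanoic acid over single pools left out. Centring arrays on their median moved the median of all genes to 0.42 log2 with octanoic acid and 0.38 log2 with clean air, against 0.11 log2 as deposited, and left 28 and 25 genes lower; quantile normalization left 29 and 24, and centring on the olfactory receptors 26 and 25. With no replicate block, GFP+ and GFP- arrays as unpaired groups, 31 genes were lower with octanoic acid and 26 with clean air. The replicate block on the pool number shared by the treatments changed no call: 0 of 40 genes passed for the effect of octanoic acid with or without it. Over the alternatives run the smallest limma adjusted p of any of the 40 genes was 0.536 for the effect on the within-pool difference, 0.740 in GFP+ cells and 0.669 in GFP- cells. Within a promoter window of 150 bases before to 50 after the start, E2F letters stood in 9 of 15 replication and 3 of 18 mitosis promoters (7.69% of all) and CHR letters in 2 and 14 (12.0% of all). Signals at background limit the size of a fall that can be shown in GFP+ cells.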

Other observations

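Genes that govern the choice between division and exit from the cell cycle were in part lower in GFP+ cells. Of 24 measured genes of cell cycle exit, D-type cyclins and inhibitors, 12 were lower with octanoic acid and 9 with clean air, and none was higher; of all genes 10.9% and 9.58% were lower and 6.26% and 5.83% higher in the same order. E2f2, an activating E2F, averaged 5.59 log2 in GFP+ cells and 11.31 log2 in GFP- cells with octanoic acid, and 5.87 log2 in GFP+ cells and 10.56 log2 in GFP- cells with clean air, and was at least 34.7-fold and at least 20.1-fold lower. Cdk2, the kinase that E-type and A-type cyclins activate, fell at least 9.64-fold with octanoic acid and at least 6.45-fold with clean air. Cdkn1b, the inhibitor p27, fell at least 5.70-fold with octanoic acid and at least 5.68-fold with clean air. Ccnd3, a D-type cyclin, fell 4.90-fold with octanoic acid and 3.83-fold with clean air.

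Cdkn1a, the inhibitor p21, fell 1.64-fold in GFP+ cells with octanoic acid and gave -0.37 ± 0.18 log2 with clean air, which did not pass (SD, n = 4; limma adjusted p = 0.152). Cdkn1c, the inhibitor p57, was at background in all 4 groups, and E2f4, a repressing E2F of resting cells, gave -0.11 ± 0.28 log2 with octanoic acid and 0.23 ± 0.32 log2 with clean air, neither of which passed. Ccnd2 passed under both treatments with both sorted samples at background. Ccnd1 was not analysed here.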
